A study of Mus musculus with 17 samples.

Results

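The mRNAs described here are those of 9 genes of the B cell programme, measured in 6 stem and progenitor populations of mouse bone marrow that were sorted after removal of cells with the B cell antigen B220. The 9 gene names are Igh-6 (the array's name for Ighm, the immunoglobulin mu heavy chain), Cd79a, Cd79b, Ms4a1, Vpreb1, Igll1, Ebf1, Pax5 and Pou2af1. All 14 non-control probes that carry one of these names were taken, of 41174 probes with 28090 gene names on the array. Igh-6 had 3 probes, Ms4a1, Igll1 and Ebf1 had a pair each and the others had 1. The brightest probe of a name speaks for the gene below, and the further probes are set beside it.

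The populations were Long-Term HSCs (LT-HSC, 2 arrays), Short-Term HSCs (ST-HSC, 3 arrays) and Multipotent Progenitors (MPP, 3 arrays), which together are called the HSC subsets, and Common Myeloid Progenitors (CMP), Granulocyte-Monocyte Progenitors (GMP) and Megakaryocyte-Erythroid Progenitors (MEP), the myeloid populations, with 3 arrays each. All came from young adult female C57Bl/6 mice, untreated and without an introduced allele, and the marrow of several mice was pooled for each replicate. Cells with B220, CD3, GR-1 or Ter119 had been removed on magnetic columns before the sort and cells with c-kit were kept. The HSC subsets were then sorted together and the myeloid populations in another sort, so the sort and this grouping cannot be told apart.

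B lymphocytes are built in a fixed order in the bone marrow. E2A, EBF1 and PAX5 switch on the programme, the heavy chain gene is rearranged by the RAG recombinase, and the mu chain first reaches the surface with a surrogate light chain made of VPREB and lambda5, the product of Igll1. CD79A and CD79B carry the signal of this receptor and of the mature one. Ms4a1 encodes CD20 of mature B cells, and Pou2af1 encodes OBF-1, a coactivator of octamer factors at immunoglobulin promoters that is also abundant in antibody-secreting cells. Transcription of the unrearranged mu locus is known in progenitors before a B cell fate is fixed.

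Levels are log2 of the quantile-normalized intensity of a probe, differences are in log2 units, and p-values are from limma with Benjamini-Hochberg adjustment over all 41174 probes, read at 0.05. Beyond the choice of the brightest probe of a name, a probe's level was compared between populations and not with the level of another probe. The scanner software says for each spot whether it is well above background, and between 41.04% and 69.87% of probes were so on an array. The lowest share was that of the unnumbered LT-HSC array, which was also the dimmest, and the arrays of LT-HSC correlated at 0.9531 against 0.9588 to 0.9924 for pairs within the other populations. Both LT-HSC arrays lay on a slide of their own, so slide and LT-HSC cannot be told apart. In these bulk samples a difference in the number of cells of a type and in RNA per cell cannot be told apart. Of the members, no value was saturated or left out. One LT-HSC array is labelled as pooled and the other carries no number. The sources used here do not say whether replicates were sorted and labelled apart, so the p-values measure the spread between these arrays, which may in part be technical.

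The 3 probes named Igh-6 lie at 3 different places in the heavy chain and kappa loci, which is why their sequences are shown. They are 60 bases long and are given 5′ to 3′ with the coordinates of build mm9 that the array files hold. The first lies on the minus strand at chr12:114656861-114656920. The array describes it by a cDNA of the heavy chain of IgM, and it is called the mu probe. Whether it lies in an exon of the mature mu mRNA was not determined here, and each result for Igh-6 by this probe carries that limit. The second lies among the heavy chain variable segments at chr12:117190820-117190879, and the third at chr6:70291007-70291066 in the kappa light chain locus, both on the minus strand. The fourth sequence is that of a probe for a heavy chain variable segment under another name, shifted by 3 bases on the genome from the second at chr12:117190823-117190882. Capitals mark the run of 35 bases that it shares with the second.
Igh-6, mu probe: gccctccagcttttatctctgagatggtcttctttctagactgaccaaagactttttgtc
Igh-6, heavy chain variable probe: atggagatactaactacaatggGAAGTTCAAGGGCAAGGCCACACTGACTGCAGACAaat
Igh-6, kappa locus probe: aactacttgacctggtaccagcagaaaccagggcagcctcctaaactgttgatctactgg
Heavy chain variable segment under another name: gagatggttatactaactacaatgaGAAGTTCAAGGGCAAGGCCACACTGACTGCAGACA
The heavy chain variable probe also shared 20 to 22 bases in a row with 3 further probes, so its signal cannot be given to 1 segment. The probes of the other 8 members shared no run of 20 bases with any probe on the array.

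Igh-6, by its mu probe, was high in LT-HSC, MPP and CMP and lowest in MEP. The mu probe read 15.11 on the unnumbered LT-HSC array and 16.00 on the pooled one. In ST-HSC it read 12.41, 11.99 and 12.03, and in MPP it read 15.05, 15.25 and 15.07. The 3 MPP arrays lay above all ST-HSC arrays and overlapped the LT-HSC arrays. Among the myeloid populations it read 14.70, 14.81 and 14.62 in CMP, 12.90, 13.14 and 13.36 in GMP and 11.22, 10.09 and 9.98 in MEP. The order of the means was LT-HSC, MPP, CMP, GMP, ST-HSC and MEP. LT-HSC over MPP was 0.43 (95% interval -0.30 to 1.16, adjusted p = 0.505), with overlap of arrays. MPP over CMP was 0.41 (95% interval -0.25 to 1.06, adjusted p = 0.416) and did not pass, although the 3 MPP arrays lay above the 3 CMP arrays. CMP exceeded GMP by 1.58 (adjusted p = 0.00781), GMP exceeded ST-HSC by 0.99 (adjusted p = 0.0354) and ST-HSC exceeded MEP by 1.71 (adjusted p = 0.000806), each without overlap of arrays.

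The heavy chain variable probe of the same name was high in LT-HSC and MPP alone. It read 9.34 and 10.61 in LT-HSC and 9.76, 9.52 and 9.66 in MPP, against 4.68 to 6.06 in ST-HSC and 5.17 to 6.0 in CMP. MPP exceeded ST-HSC by 4.10 (adjusted p = 0.000281), while LT-HSC and MPP differed by 0.33 (95% interval -0.73 to 1.39, adjusted p = 0.767). In MEP it read 4.55 to 5.46 and in GMP 3.47 to 4.70, in both with 1 array not well above background.

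The kappa locus probe behaved otherwise and was high in LT-HSC only. It read 10.56 and 11.16 in LT-HSC and no more than 6.56 on any other array. LT-HSC exceeded ST-HSC, the next in order, by 5.47 (adjusted p = 0.000483). None of the 3 GMP arrays was well above background, and LT-HSC was at least 98.3-fold brighter than GMP. The following neighbours in the order, ST-HSC, MEP, MPP, CMP and GMP, did not differ beyond their spread, with adjusted p of 0.471 to 0.99.

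Cd79b and Cd79a, which encode the signalling partners of the receptor, showed unlike patterns. Cd79b was bright in every population but MEP. The LT-HSC arrays read 11.98 and 12.63, those of ST-HSC 11.69, 11.18 and 11.46 and those of MPP 11.83, 11.38 and 11.59. CMP arrays read 11.91, 11.32 and 11.54, GMP arrays 11.92, 11.73 and 11.94, and MEP arrays 8.92, 8.23 and 8.34. All MEP arrays lay below all others, and ST-HSC, the nearest population, exceeded MEP by 2.95 (adjusted p = 1.25e-06). No pair among the other 5 populations was called. Cd79a was near the background everywhere, with 6 of 17 arrays well above it and means between 3.38 in CMP and 4.79 in LT-HSC. Its F-test over the populations did not pass (adjusted p = 0.143).

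Vpreb1 and Igll1, which encode the surrogate light chain, were highest in LT-HSC and MEP. Vpreb1 was well above background on all 17 arrays. LT-HSC arrays read 9.72 and 10.41, ST-HSC arrays 8.39, 8.32 and 8.78 and MPP arrays 8.59, 8.14 and 7.99. It read 8.86, 7.79 and 7.90 in CMP, 8.56, 7.62 and 7.72 in GMP and 10.33, 9.32 and 8.55 in MEP. Both LT-HSC arrays lay above all arrays of ST-HSC, MPP, CMP and GMP, and the MEP arrays reached from the level of GMP to that of LT-HSC. LT-HSC exceeded GMP by 2.10 (adjusted p = 0.00553), CMP by 1.89 (adjusted p = 0.0142) and MPP by 1.83 (adjusted p = 0.0373). MEP exceeded GMP by 1.44 (adjusted p = 0.0327). The call against MPP was lost on leaving out either LT-HSC array, MPP replicate 2 or 3, GMP replicate 2 or CMP replicate 2 (adjusted p up to 0.134). That against CMP was lost without the pooled LT-HSC array or CMP replicate 2 (adjusted p up to 0.0873), and that of MEP over GMP without GMP replicate 1 or 2, MEP replicate 1 or the unnumbered MEP array (adjusted p up to 0.138).

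Igll1 read 5.38 and 6.50 in LT-HSC, the former not well above background, and 7.01, 6.24 and 5.57 in MEP. ST-HSC arrays read 4.12, 2.91 and 2.06 and MPP arrays 3.00, 2.75 and 2.78. CMP arrays read 3.4, 1.61 and 3.14 and GMP arrays 4.95, 3.19 and 5.02. All MEP arrays lay above every array of ST-HSC, MPP, CMP and GMP. MEP exceeded MPP by 3.43 (adjusted p = 0.00104) and ST-HSC by 3.25 (adjusted p = 0.00179). Only 1 MPP array and 2 ST-HSC arrays were well above background, so these sizes rest in part on background values. In CMP no array was well above background, and MEP was at least 5.25-fold brighter. LT-HSC also exceeded ST-HSC by 2.91 (adjusted p = 0.0454), but that call was lost on leaving out any 1 of 13 of the 17 arrays (adjusted p up to 0.136). The second probe of Igll1, which lies upstream of the first on the transcribed strand, was well above background on 3 arrays and its F-test did not pass (adjusted p = 0.583).

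Vpreb3 had its high levels in the same populations. This gene, which encodes an endoplasmic reticulum protein of B cell precursors, read 7.86 and 9.04 in LT-HSC and 8.55, 8.07 and 7.10 in MEP, and between 3.76 and 5.91 on the other arrays. MEP exceeded ST-HSC by 2.70 (adjusted p = 0.000955) and GMP by 3.49 (adjusted p = 0.000164). Among 28448 probes well above background on at least 3 arrays, Vpreb3 was the gene most like Vpreb1 over the 17 arrays (Pearson r = 0.911). Vpreb2, a close copy of Vpreb1, read 6.35, 6.28 and 5.71 in MEP and 4.44 to 5.78 elsewhere. For Igll1 the most like genes were 1110008P14Rik (r = 0.922), 5730508B09Rik (r = 0.888) and Lig4 (r = 0.886), a DNA ligase of end joining.

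The promoters of Igll1 and Vpreb1 are shown because both genes had the pattern of LT-HSC and MEP. They are the windows of 300 bases from RefSeq, build GRCm38.p6, on the minus strand at chr16:16863936-16864235 and chr16:16869206-16869505, and end 50 bases past the start of the gene. Capitals mark CAGGTG, an E-box that E2A can bind, on either strand.
Igll1 promoter: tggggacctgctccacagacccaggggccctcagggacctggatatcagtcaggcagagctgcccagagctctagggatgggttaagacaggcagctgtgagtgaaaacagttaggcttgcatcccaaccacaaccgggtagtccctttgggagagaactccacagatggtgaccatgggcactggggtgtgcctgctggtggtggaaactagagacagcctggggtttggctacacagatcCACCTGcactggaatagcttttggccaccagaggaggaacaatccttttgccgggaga
Vpreb1 promoter: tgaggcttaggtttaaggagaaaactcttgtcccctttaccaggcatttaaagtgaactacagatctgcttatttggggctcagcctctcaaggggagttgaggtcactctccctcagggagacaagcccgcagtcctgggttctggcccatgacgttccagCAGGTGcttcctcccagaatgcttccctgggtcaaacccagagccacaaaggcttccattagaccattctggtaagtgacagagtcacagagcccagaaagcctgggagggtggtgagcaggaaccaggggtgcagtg
The first base of the E-box lay at -8 in Igll1 and -88 in Vpreb1, and at -154 in the promoter of Cd79a. Of 32851 promoters of this length 20.2% hold it. The EBF motif CCCNNGGG, held by 13.7% of promoters, was found in the Igll1 window at -231 and in no other member's. The octamer ATGCAAAT, held by 1.74%, was in none of the 7 windows found for 6 members. The table gave no window for Igh-6, Cd79b or Ms4a1.

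**Figure D1:**
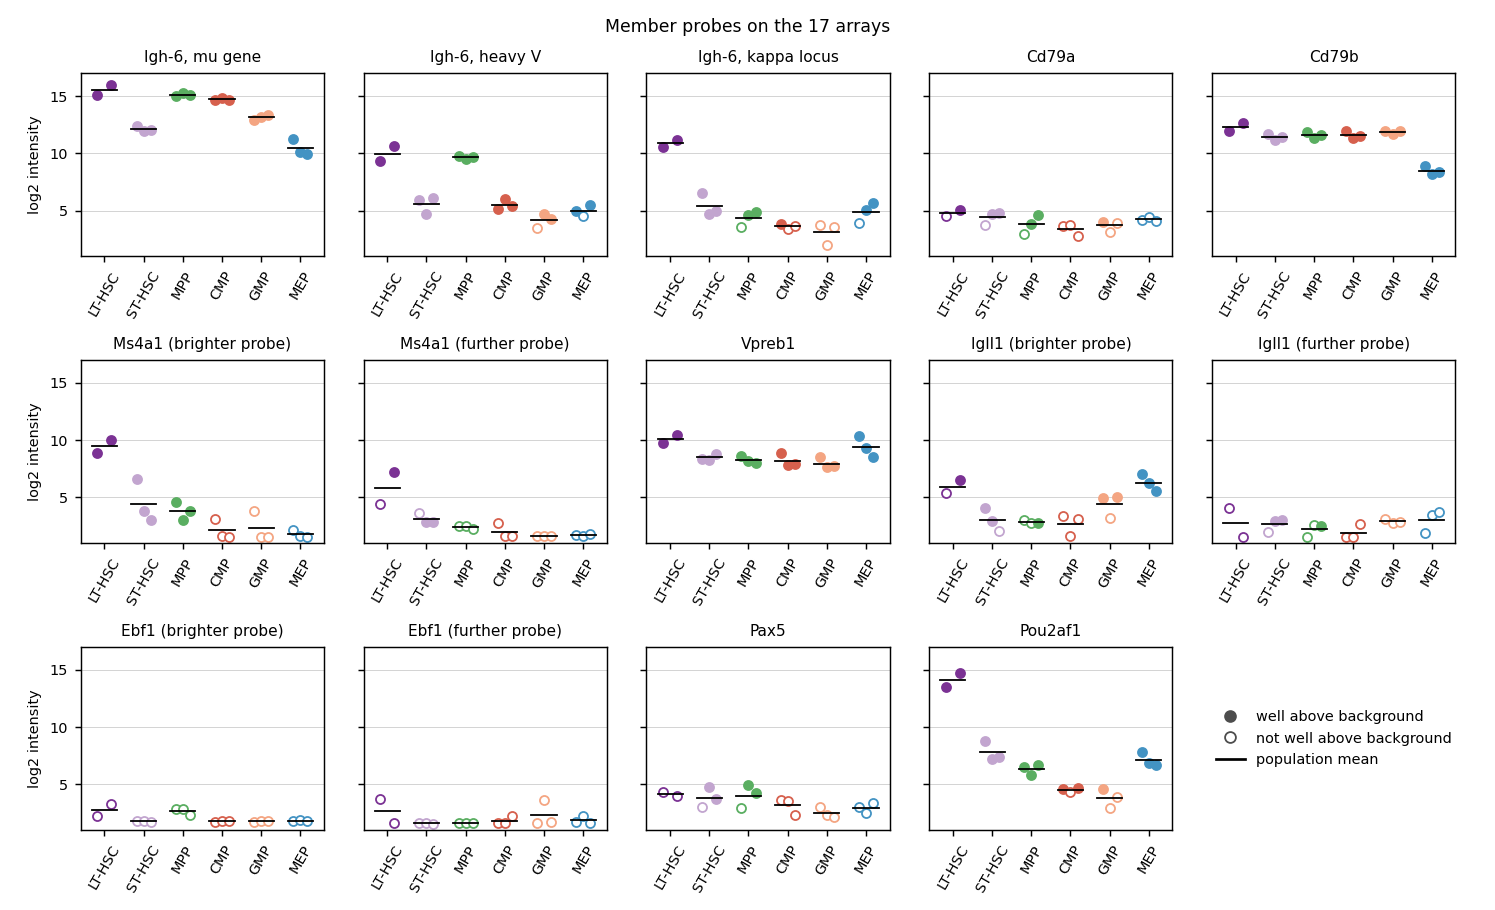
Levels of the 14 probes of the 9 genes on each of the 17 arrays, as log2 normalized intensity, by population. Filled points were well above background, open points were not, and lines are population means. Pou2af1 and Ms4a1 stand apart in LT-HSC, Cd79b is low in MEP alone, and Ebf1 was not well above background on any array.

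Ms4a1, the gene of the mature B cell antigen CD20, was high in LT-HSC and low or not well above background elsewhere. It read 8.92 and 10.06 in LT-HSC. In ST-HSC it read 6.62, 3.78 and 2.99, and in MPP 4.59, 3.06 and 3.84. No array of CMP, GMP or MEP was well above background, with 1.57 to 3.8. LT-HSC exceeded ST-HSC by 5.02 (adjusted p = 0.0123), and it was at least 48.7-fold brighter than CMP, 37.9-fold than GMP and 27.4-fold than MEP. The second probe of Ms4a1 read 4.41 and 7.25 in LT-HSC and at most 3.67 elsewhere, with 3 arrays well above background, and its excess over ST-HSC of 2.70 lost its call without the pooled LT-HSC array (1.28, adjusted p = 0.063) and without either numbered ST-HSC array (adjusted p up to 0.0864).

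Pou2af1 had the widest range of the 9 genes. LT-HSC arrays read 13.51 and 14.72, ST-HSC arrays 8.79, 7.18 and 7.41 and MPP arrays 6.55, 5.79 and 6.67. It read 4.55, 4.34 and 4.66 in CMP, 4.62, 2.94 and 3.93 in GMP and 7.79, 6.87 and 6.68 in MEP. Both LT-HSC arrays lay far above all others, and the GMP and CMP arrays lay below all others. LT-HSC exceeded ST-HSC by 6.32 (adjusted p = 6.12e-05) and GMP by 10.28 (adjusted p = 2.03e-07). MEP exceeded GMP by 3.28 (adjusted p = 0.000386) and CMP by 2.59 (adjusted p = 0.00277). Only 1 GMP array and 2 CMP arrays were well above background, so the sizes against these populations rest in part on background values. Pou2af1 is on a list of predicted targets of GMP miRs that the study chose on these samples, so its low level in GMP is not independent evidence of that list's direction. MPP exceeded CMP by 1.82 (adjusted p = 0.0358), a call lost when any 1 of the 6 arrays of these populations was left out (adjusted p up to 0.125). The genes most like it over the 17 arrays were 2010001M09Rik (r = 0.979), the array's name for Mzb1 of marginal zone B and plasma cells, and Gm1418 (r = 0.964), a kappa variable segment. Those most like Ms4a1 were Tnfrsf17 (r = 0.964), which encodes the plasma cell receptor BCMA, a probe named by transcript (r = 0.955) and Faim3 (r = 0.943), the receptor for IgM.

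The early transcription factors Ebf1 and Pax5 were at the limit of detection. Neither probe of Ebf1 was well above background on any of the 17 arrays. Its brighter probe read 2.20 and 3.24 in LT-HSC and 2.31 to 2.85 in MPP, against 1.69 to 1.84 on all arrays of the other populations, so its calls below compare values within the background. Pax5 was well above background on 2 ST-HSC and 2 MPP arrays, with a mean of 4.16 for LT-HSC. The mean was 3.83 for ST-HSC and 4.01 for MPP, against 3.19 for CMP, 2.49 for GMP and 2.95 for MEP. Its F-test did not pass (adjusted p = 0.131).

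Over the 6 populations the F-test called 7 of the 9 genes, all but Cd79a and Pax5, while 40.1% of all gene names were called. In LT-HSC, 2 of the 9 genes, Ms4a1 and Pou2af1, lay above each of the other populations at adjusted p under 0.05, against 1.37% of gene names. By probe it was 4 of 14, with the kappa locus probe and the second Ms4a1 probe added, against 1.15% of probes. In MEP, 2 of the 9, Igh-6 by its mu probe and Cd79b, lay below each of the others, against 5.15% of gene names.

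Between the HSC subsets and the myeloid populations, 6 of the 9 genes were higher in the HSC subsets and none was lower, against 21.7% and 19.0% of gene names. Of the 6, Igh-6, Cd79b, Ms4a1 and Pou2af1 kept their calls under every alternative run for this contrast. With the scanning run or day as a block 4 genes were called and Ebf1 and Pax5 were lost, against 8.16% and 7.68% of gene names called higher. Ebf1 was also lost in the authors' table and on averaging the probes of a name, and Pax5 with the slide as a block. Pou2af1 differed by 4.26 (SE 0.31, adjusted p = 4.41e-07), Igh-6 by 1.51 (SE 0.18, adjusted p = 2.66e-05) and Cd79b by 1.13. For Pou2af1 only 6 of the 9 myeloid arrays were well above background, so its size rests in part on background values. None of the 9 myeloid arrays had Ms4a1, Pax5 or Ebf1 well above background, so the sizes of these called differences are not measured. Ms4a1 (adjusted p = 5.98e-05) was at least 2.3-fold brighter in the HSC subsets, and no bound above 1 could be given for Pax5 or Ebf1. The arrays of the groups overlapped for each of the 9 genes. Cd79a (0.55, adjusted p = 0.102), Vpreb1 (0.42, adjusted p = 0.216) and Igll1 (-0.52, adjusted p = 0.311) did not pass.

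The size for Pou2af1 rested in large part on LT-HSC. With the LT-HSC arrays left out, Pou2af1 was 1.91 higher in ST-HSC and MPP than in the myeloid populations (adjusted p = 0.000508). The same 6 genes were called higher, against 21.6% of gene names, with Igh-6 at 0.87 and Cd79b at 0.87. Ms4a1 (adjusted p = 0.0116), Pax5 and Ebf1 were again set against myeloid arrays none of which was well above background, so no size is given for them. Igll1 was then called lower, at -1.52 (adjusted p = 0.0117), against 19.2% of gene names. Its MPP and CMP arrays were mostly not well above background, so this size rests in part on background values. On the 10 numbered arrays Igll1 was called lower without a block for replicate number and not with it. Without LT-HSC Vpreb1 was at -0.15 (adjusted p = 0.702). Scanning runs held unlike sets of populations, and only the second held both groups, with 1 array from each population but LT-HSC. Within it the difference was 2.02 for Pou2af1, 0.78 for Igh-6 and 0.85 for Cd79b. The signs were positive for Ms4a1 and Ebf1 and negative for Pax5, with myeloid values within the background. With the run as a block Pax5 turned to -0.38 (adjusted p = 0.66).

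**Figure D2:**
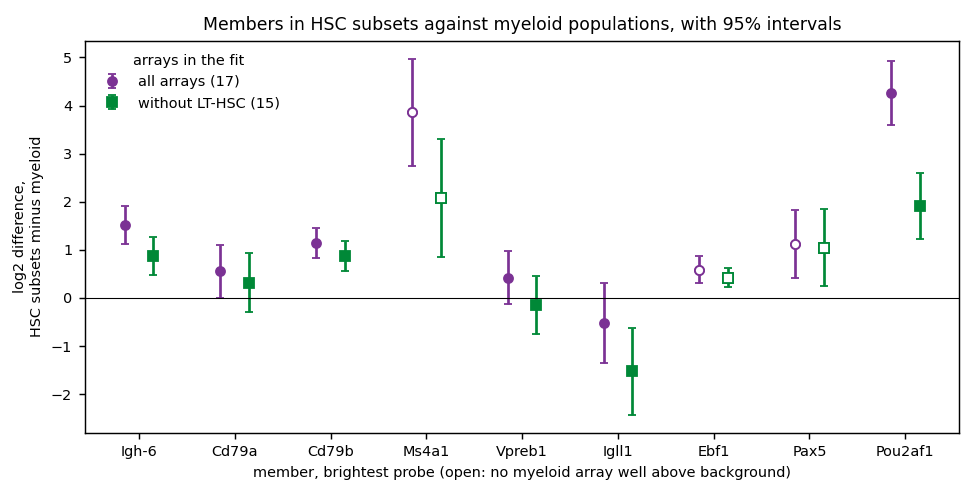
Difference between HSC subsets and myeloid populations for the 9 genes in log2 units with 95% intervals, over all 17 arrays and without the LT-HSC arrays. Open symbols mark Ms4a1, Ebf1 and Pax5, which no myeloid array had well above background, so that their heights are not measured sizes. Pou2af1 lies at 4.26 over all arrays and 1.91 without LT-HSC, and the interval of Igll1 lies below 0 without LT-HSC.

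MPP, which contain the cells with the most lymphoid potential among these populations, exceeded the mean of the other 5 in Igh-6 by 1.93 (adjusted p = 0.000129). Ebf1 was called as well (adjusted p = 0.0143), but without any array well above background its size is not measured. That is 2 of 9 genes, or 1 without Ebf1, against 9.98% of gene names. The heavy chain variable probe of Igh-6 was 3.61 higher (adjusted p = 1.89e-05), while the kappa locus probe was at -1.23 (adjusted p = 0.0957). Igll1 was 1 of 9 called lower, at -1.62 (adjusted p = 0.0444), against 6.47% of gene names, and that call was lost on leaving out any 1 of 11 of the 17 arrays. Only 1 MPP array and 8 of the 14 others were well above background for Igll1, so its size rests largely on background values. The call of Ebf1 was lost without MPP replicate 2 (adjusted p = 0.108) or the unnumbered MPP array (adjusted p = 0.06). Within the second scanning day, which held 1 array each of MPP, CMP and GMP, MPP exceeded the others in Igh-6 by 1.25 by the mu probe. The heavy chain variable probe was higher in MPP there too, but the GMP array of that day was not well above background.

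Other immunoglobulin segments on the array, grouped by the array's own descriptions after their values were seen, are given as a description only. Both probes for the mu constant region under other names were highest in LT-HSC. The one at chr12:114659630-114659689 read 16.49 and 17.49 in LT-HSC and 8.49 to 13.54 on the other arrays. The one at chr12:114659100-114659159 read 18.96 and 18.42 in LT-HSC, 16.64 on the unnumbered ST-HSC array and 9.84 to 14.27 on the rest. The mu probe of Igh-6 lies 2769 and 2239 bases downstream of them on the transcribed strand, and there MPP and CMP were nearly as bright as LT-HSC. Probes within 2769 bases of each other thus ranked the populations differently. The delta constant probe, further downstream, was highest in MPP at a mean of 6.18 and in CMP at 6.01, against 5.25 in LT-HSC. For this probe the unnumbered LT-HSC array was not well above background.

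Of 37 kappa variable probes, 33 were well above background on at least 2 arrays. All 33 were highest in LT-HSC by the mean, and for 32 both LT-HSC arrays lay above all other arrays. Some of them, and a heavy chain variable probe counted below, were well above background on the LT-HSC arrays alone. For these the filter made LT-HSC the highest population in advance. The median of the class fell from 10.22 in LT-HSC to 4.47 in ST-HSC and 3.37 in MPP, with 2.67 as its lowest, in GMP. Of 21 heavy chain variable probes 19 were detected in the same way, 18 of them highest in LT-HSC, 14 with both arrays above all others, with medians of 9.37 in LT-HSC and 5.79 in MPP, the next. The 3 lambda probes had a median of 13.15 in LT-HSC, 7.20 in ST-HSC and at most 5.49 elsewhere. Among the constant regions of switched classes, both LT-HSC arrays lay above all others for 2 of 2 gamma 1 probes, with a class median of 8.36, and for 1 of 2 epsilon probes. They did so for 0 of 1 gamma 2b probe, 0 of 2 gamma 2c probes and 0 of 1 alpha probe. The alpha probe read 14.42 on the pooled LT-HSC array but 10.74 on the unnumbered one, against 10.31 to 10.98 in ST-HSC and up to 11.77 in MEP, so its populations overlapped. Over 29925 probes detected on at least 2 arrays, 15.1% were highest in LT-HSC and 2.35% had both LT-HSC arrays above all others.

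**Figure D3:**
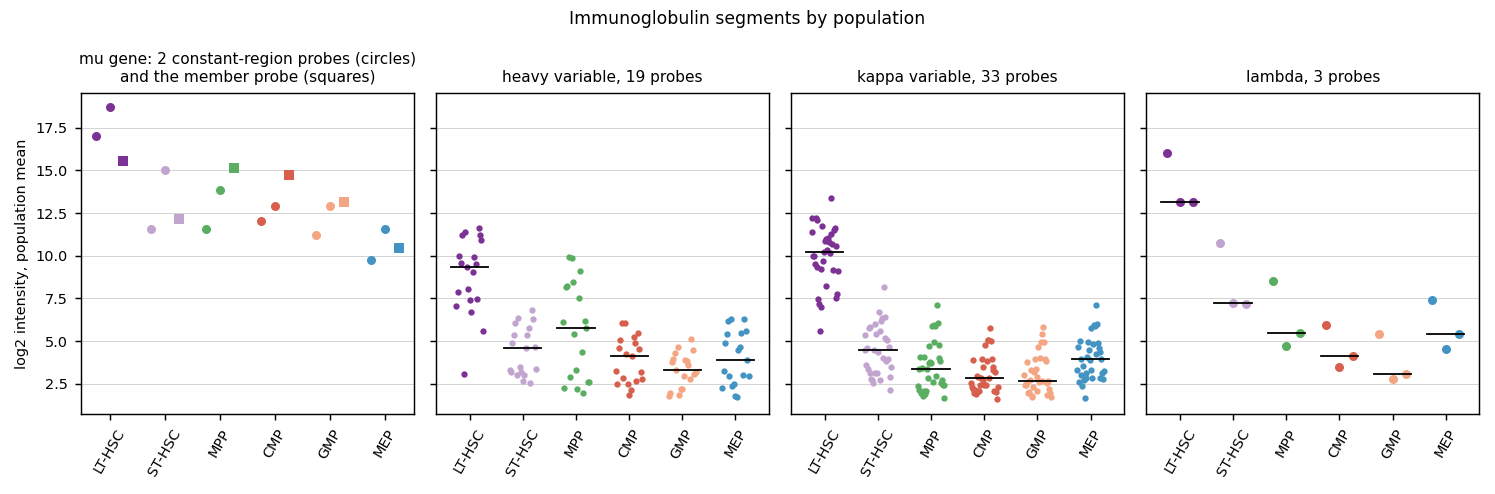
Mean log2 normalized intensity of immunoglobulin probes in each population, by class of segment. The variable and lambda classes are each highest in LT-HSC by their median. The next level is ST-HSC for kappa (10.22 and 4.47) and lambda probes (13.15 and 7.20) and MPP for heavy chain variable probes (9.37 and 5.79).

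Markers of mature cells were set beside these levels, and their part in the results was not tested. The mean of 6 plasma cell markers was 10.62 and 10.87 on the LT-HSC arrays, the pooled one without Igj, whose spot there carried an outlier mark, and 4.70 to 7.84 on all others. Both LT-HSC arrays had 5 or 6 of the 6 well above background. Tnfrsf17 read 10.50 and 12 in LT-HSC, 6.46 on the unnumbered ST-HSC array and at most 4.50 elsewhere. Igj, the joining chain of secreted IgM and IgA, read 16.73 on the unnumbered LT-HSC array, 10.37 to 12.31 in ST-HSC and 2.80 to 9.20 elsewhere. Of the list, Prdm1, Tnfrsf17 and 2010001M09Rik lay above each other population in LT-HSC, 3 of 6 against 1.37% of gene names, with Prdm1 well above background on 1 of the LT-HSC arrays. The other members of the list did not all set LT-HSC apart. Xbp1, a factor of secretory cells, had a mean of 10.32 in LT-HSC and 10.47 in GMP. Sdc1, which encodes CD138, had a mean of 10 in LT-HSC and 9.95 in MPP.

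The mature B cell list did not stand apart in this way. Its mean over 11 markers was 7.05 and 7.67 in LT-HSC and 7.23 to 7.42 in MPP, and 5.56 to 6.92 in the other populations. Cr2, Fcer2a and Blk were not well above background on either LT-HSC array. Cd22, an inhibitory coreceptor, was highest in CMP at 7.51, 7.59 and 7.80, where it lay above each other population, and was 4.26 to 5.33 elsewhere. In MPP, where both Igh-6 probes of the heavy chain locus were high, the plasma cell mean was 6.66 to 6.92.

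The other lists were also measured, since the removal of lineage cells was by surface antigens. The mean of 10 T cell markers was 6.41 and 6.84 in LT-HSC, 5.92 to 6.15 in MPP and 3.68 to 5.40 elsewhere, with 5 and 10 of the 10 well above background on the LT-HSC arrays. For 5 plasmacytoid dendritic cell markers it was 7.56 and 7.87 in LT-HSC, 7.41 to 8.46 in MPP and 3.63 to 7.12 elsewhere, with Siglech not well above background in LT-HSC. Ly6d of that list, which also marks early lymphoid cells, read 13.08 and 14.18 in LT-HSC and at most 10.48 elsewhere. The neutrophil mean was 10.84 and 12.01 in LT-HSC, 10.51 to 11.95 in ST-HSC and 8.65 to 10.97 elsewhere. For NK cells it was 6.84 and 7.04 in LT-HSC and 5.19 to 6.21 elsewhere, and for macrophages 8.56 to 9.21 in ST-HSC and 5.91 to 7.29 elsewhere. The erythroid mean was 10.08 to 11.25 in MEP, where Vpreb1 and Igll1 were high, 8.45 and 9.20 in LT-HSC and 4.69 to 8.19 elsewhere. The plasma cell mean in MEP was 5.23 to 6.03.

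**Figure D4:**
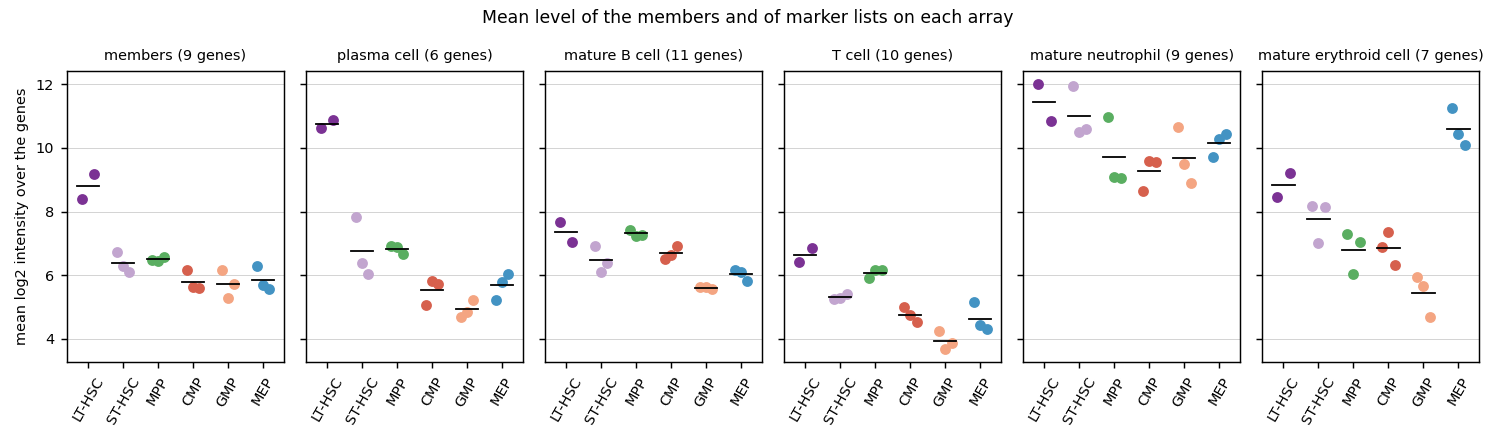
Mean log2 normalized intensity of the 9 genes and of each marker list on every array, by population. The plasma cell list has the widest gap between LT-HSC (10.62 and 10.87) and the other arrays (at most 7.84).

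The wider B cell pathway was read by 4 further lists. Among 11 of 14 receptor chains on the array under the listed names, 5 were higher and 1 lower in the HSC subsets than in the myeloid populations, against 21.7% and 19.0% of all gene names. In MPP 1 of the 11, Cd72, was higher than in the mean of the others, about the 9.98% of all gene names, and none was lower, against 6.47%. Cd72, a coreceptor of B cells, exceeded the others by 1.83 in MPP (adjusted p = 8.96e-06). Among 20 transcription factors 10 were higher and 2 lower in the HSC subsets (21.7% and 19.0% of all gene names), and 9 were higher and none lower in MPP (9.98% and 6.47%). Erg and Zfp521, both factors of stem cells, exceeded the myeloid level by 2.24 (adjusted p = 3.48e-08) and 3.00 (adjusted p = 3.85e-06). Ikzf1, which opens lymphoid fate, was 0.91 higher in MPP (adjusted p = 0.00106), and Bach2, a repressor of plasma cell genes, was 1.48 higher (adjusted p = 3.1e-05). Tcf4, which encodes the E protein E2-2, was 1.49 higher in MPP (adjusted p = 3.26e-05). Cd72, Erg, Bach2 and Rag1 are, like Pou2af1, on the study's list of predicted targets of GMP miRs. Erg is also on that of HSC miRs, and Bach2 on that of MEP miRs. These lists were chosen on these samples, so no direction of these genes is independent evidence of a list's direction. In GMP the mean of Bach2 was 5.96, the lowest of the 6 populations, but those of Cd72 and Erg were 8.18 and 10.83, above the 6.31 and 8.21 of MEP. For Rag1 no GMP or ST-HSC array was well above background.

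Dntt and Rag1, which act in recombination, had their highest levels in MPP. Of 9 recombination genes 4 were higher in MPP and none lower, against 9.98% and 6.47% of all gene names. Dntt, the template-free polymerase of V(D)J joints, read 17.41, 17.56 and 17.20 in MPP and at most 15.70 elsewhere, an excess of 5.0 over the mean of the others (adjusted p = 5.79e-06). Rag1, a subunit of the recombinase, read 7.07, 7.19 and 6.50 in MPP and at most 6.16 elsewhere, and MPP was called above the mean of the others (adjusted p = 0.00231). Only 3 of the 14 other arrays were well above background for Rag1, so the size is not measured, and MPP over LT-HSC alone did not pass (adjusted p = 0.215). Between the HSC subsets and the myeloid populations 4 of the 9 were higher and 3 lower, against 21.7% and 19.0%, with Xrcc4 at 0.92 (adjusted p = 0.000326) and Prkdc at -1.40 (adjusted p = 5.49e-06), both of end joining.

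Of 19 signalling genes 12 were higher and 1 lower in the HSC subsets, against 21.7% and 19.0% of all gene names, and 11 were higher and none lower in MPP, against 9.98% and 6.47%. Il7r, the receptor of the cytokine that B cell precursors need, read 9.68, 9.46 and 9.01 in MPP and at most 8.47 elsewhere, an excess of 3.32 (adjusted p = 0.000106). No GMP array was well above background for Il7r, so this size rests in part on background values. Plcg2, the phospholipase below the B cell receptor, was 1.20 higher in MPP (adjusted p = 3.28e-05). Ptprc, which encodes CD45 including its B220 form, was 1.90 higher in the HSC subsets (adjusted p = 1.3e-07), as were Malt1 by 1.33 (adjusted p = 0.000103) and Bcl10 by 0.93 (adjusted p = 8.99e-05), adaptors towards NF-kB. The median differences of the lists in MPP were 0.17 for receptor chains, 0.87 for transcription factors, 0.26 for recombination and 0.74 for signalling, against -0.03 over all gene names, and -0.20 for the 9 genes. Against the myeloid populations the medians were 0.55, 0.58, 0.10 and 0.93 in the same order and 1.13 for the 9 genes, against 0.04. The medians of the 9 genes were the values of Ms4a1 in MPP and of Pax5 against the myeloid populations, which rest in part on background values.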

How the data were processed

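RNA of the 17 sorted samples was hybridised by the authors to single-color Agilent 4x44k arrays. In the scanner files they deposited, the intensity of each spot has had its background and spatial trend taken off by the scanner's own software, with no normalization across arrays. A series table of log2 values, quantile normalized by the authors in limma, was used here as an alternative. Its columns ranked the probes as the median spot signals did (lowest Spearman correlation 1.0000).

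Quantile normalization of the log2 intensities used all 45018 spots (limma 3.58.1, R 4.3.3). Control spots (1639) and spots with an outlier mark were then left out, the latter leaving 161 probe values missing, and spots of a probe were averaged. All probes were fitted by lmFit and eBayes with a mean for each population, as in the study's methods. Contrasts were the F-test over the 6 populations, the HSC subsets against the myeloid populations, MPP against the mean of the others, and all pairs, at a Benjamini-Hochberg adjusted p of 0.05. A fold against a population without any array well above background is a lower bound: the mean of the brighter population against, on each array of the dim one, the higher of the lowest signal well above background and the probe's own. Simulated data were used to test the fit. The number of arrays limits the precision.

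Alternatives were 75th percentile scaling, the authors' table, normexp (offset 50), leaving out dim probes, blocks for scanning run, scanning day, slide and replicate number, the mean of all probes of a name, the arrays without LT-HSC, the numbered arrays unblocked, and leaving out each array.

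The members, the pathway and marker lists and the tests were chosen with earlier results of these data known. Genes of the pathway lists are named where called without overlap of arrays, at most 5 each way per list and contrast by size, and Pearson correlations name the 3 most like genes of a member, as a description. Defining markers are named from the marker lists. Grouping of the other immunoglobulin probes, the block for scanning day, the unblocked numbered arrays and the pairs under alternatives were chosen after the data were seen. Gene names are those of the array. Promoters are from RefSeq. No genome annotation of build mm9 was used here.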

Additional observations from a re-analysis of the deposited data

How the results depend on the processing

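The F-test counted 6 to 8 of the 9 genes on leaving out each array, against 34.9% to 45.8% of gene names. The HSC subsets against the myeloid populations gave 6 to 7 higher and 0 lower, against 19.1% to 24.4% and 16.2% to 19.9%. That higher count was 4 with the scanning run or day as a block, and 5 in the authors' table, with the dim filter, with the mean of all probes and with the slide as a block. The shares of gene names called higher were 8.16% with the run and 7.68% with the day as a block. They were 21.9% in the authors' table, 30.2% with the dim filter, 18.1% with the mean of all probes and 14% with the slide as a block. Without the LT-HSC arrays 1 gene, Igll1, was lower in that contrast, against 19.2% of gene names. The F-test then no longer called Ms4a1 and Vpreb1, while 37.2% of gene names were called. In LT-HSC 2 of the 9 genes were called above each other population in all 17 fits without 1 array. In MPP 1 gene was higher by 75th percentile scaling, normexp, in the authors' table, with the dim filter and with the mean of all probes. Ebf1 lost its call or was filtered out there. Of gene names 8.45%, 10.1%, 10.4%, 13.9% and 8.57% were called higher in the same order. On leaving out each array 1 to 2 genes were higher, against 6.05% to 11.3% of gene names. Without the LT-HSC arrays Cd79b was called higher in MPP beside Igh-6 and Ebf1, against 12.4%. The genes lower in MPP were 2 in the authors' table, Igll1 and Pou2af1, against 7.41% of gene names. With the scanning run as a block they were 2, Igll1 and Vpreb1, against 6.99%. The count was 0 without LT-HSC (10.1% of gene names) and 0 to 2 on leaving out each array (2.7% to 9.39%). In place of Igll1, Pou2af1 was called lower by normexp (7.49%) and Vpreb1 with the scanning day as a block (6.65%).

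Sort, scanning run and scanning day coincide for the 10 numbered arrays, as do number and slide for the myeloid ones, and these cannot be told apart in the correlations of deviations. Within a sort, 8 of 8 same-numbered pairs were over 0.1 (0.131 to 0.521), as were 7 of 8 pairs with unlike numbers (0.089 to 0.325). Across the sorts it was 0 of 6 same-numbered pairs (-0.059 to 0.006) and 1 of 18 others, so the number did not pair samples across the sorts. With the replicate number as a block, on the 10 numbered arrays without LT-HSC, the F-test called 4 of the 9 against 46.9% of gene names, and 5 genes were higher and 0 lower in MPP, against 22.4% and 15.3%. The same 10 arrays without the block gave 8 by the F-test (55.3% of gene names), 5 higher and 0 lower in MPP (23.7% and 16.8%), and 1 lower in the HSC subsets (24.6%). In MPP both fits turned the sign of the same differences. With the block they were 0.20 for the kappa locus probe of Igh-6, 0.17 for Cd79a, 1.42 and 0.48 for the probes of Ms4a1 and 0.38 for Pou2af1. Without it they were 0.60, 0.26, 1.41 and 0.42, and 0.73 in the same order. The turns were thus present without the block, and their cause was not tested.

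The called difference of Pax5 between HSC subsets and myeloid populations turned to -0.38 with the scanning run and -0.34 with the scanning day as a block, and the other differences that turned sign were not called in the reported fit. With 75th percentile scaling these were Cd79a (0.015) and Ms4a1 (0.092) in MPP and both Igll1 probes (0.22 and 0.80) in the HSC subsets. With the scanning run as a block they were Cd79a (-0.51) and Vpreb1 (-0.17) in the HSC subsets and Pax5 (-0.018) in MPP, and with the scanning day -0.48, -0.16 and -0.038. Without LT-HSC they were the kappa locus probe (0.094), the probes of Ms4a1 (1.16 and 0.30) and Pou2af1 (0.53) in MPP and Vpreb1 (-0.15) in the HSC subsets. On leaving out each array, Cd79a in MPP ranged from -0.70 to 0.11, Ms4a1 in MPP from -0.58 to 0.18 and the second Igll1 probe in the HSC subsets from -0.47 to 0.35, with 0.062 without MEP replicate 2. The cause was not tested. Levels under about 4 lie at the background of most arrays, so the order of Cd79a, Pax5 and Ebf1 could not be resolved.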
